A study of Mus musculus with 33 samples.

Results

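Translation factors and aminoacyl-tRNA synthetases are the soluble proteins that load, start and run the ribosome. They were followed in mouse spleen cells cultured with a CpG oligodeoxynucleotide (ODN), a short synthetic DNA whose unmethylated CG motifs are sensed by Toll-like receptor 9. Members were taken by gene symbol: symbols starting with Eif1 to Eif6 or with Eef, symbols ending in ars, ars1 or ars2, and Eprs, without the Eif2ak kinases. On the platform 70 symbols met this rule, and 57 of them, among 9672 genes with values, were measured on at least 1 array. The other 13, among them Eef2k, Eif3f, Nars, Qars, Sars and Wars, had no value on any array. The measured members comprised 3 genes labelled eIF1 (the eIF1A genes Eif1a and Eif1ax, and Eif1ad) and 5 of eIF2 and its exchange factor eIF2B. There were 11 genes of eIF3, 8 of eIF4, and a class of 2 labelled eIF5 and eIF6, which were Eif5a and Eif6. A further 8 had Eef symbols and are called elongation factors here by that symbol. The rest were 10 cytosolic and 6 mitochondrial synthetases, and 4 inhibitors or modifiers of initiation.

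Synthetases join amino acids to tRNAs, most of them 1 kind of amino acid each. In initiation, eIF2 brings the initiator tRNA to the small ribosomal subunit, eIF3 holds the subunit ready, and the cap-binding protein eIF4E with the RNA helicase eIF4A recruits and opens the mRNA. Elongation factors then deliver charged tRNAs and move the ribosome along. Resting lymphocytes make little protein, and activation through antigen or Toll-like receptors is known to raise translation before the cells divide.

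The cells were single-cell suspensions from spleens of female BALB/c mice aged 2 months, and 3 treatments were compared at 3 times. Cultures received an equimolar mix of CpG ODN 1555 and 1466 at 1 uM, an equimolar mix of control ODN 1612 and 1471 at the same dose, or medium alone, and total RNA was taken after 2, 4 or 8 h. Each group had 4 arrays at 2 h, 4 at 4 h and 3 at 8 h, 33 in all, from 3 to 4 experiments described by the submitters as independent; the labels do not tie an array to an animal. Each array paired the Cy5-labelled sample with a Cy3-labelled pool of RNA from several mouse tissues (Universal Mouse Reference RNA), so a value is the log ratio of spleen cells to that pool. The log base is not stated and was taken as 2 from the range of values, and a value says nothing about how one gene's RNA compares with another's.

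Between 7908 and 11129 probes had a value per array, and 33 of the 57 members were measured on all 33 arrays; the member with the fewest values had 24. Pairs of arrays correlated between 0.664 and 0.961 over all probes. B cell markers (array medians 1.46 to 3.37) and T cell markers (0.58 to 2.62) lay above the reference, while markers of tissues in the reference pool that are absent from spleen lay between -0.63 and -0.03. A set of 4 arrays (CpG ODN at 2 h replicate 1, control ODN at 2 h replicates 1 and 2, medium at 4 h replicate 1) carries lower experiment numbers than the rest. Results that changed without them are given with both values.

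At 8 h the median of the members measured on all arrays stood higher in CpG ODN cultures than on any other array. The median over the 33 members measured throughout was -0.14, -0.09 and 0.08 on the CpG ODN arrays. It lay between -0.53 and -0.37 with control ODN and between -0.82 and -0.55 in medium at the same time. At 2 h and 4 h it ranged from -0.84 to -0.26 and the 3 treatments overlapped. Thus the lowest CpG ODN array at 8 h lay above the highest of the other 30. All members named below as risen or fallen against control ODN at 8 h are among these 33. Over all tested members, the median difference from control ODN at 8 h varied by role. It was -0.22 for elongation factors, 0.01 for mitochondrial synthetases and 0.05 for eIF2 and eIF2B. The other roles had medians from 0.11 to 0.72, the highest that of cytosolic synthetases.

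**Figure D1:**
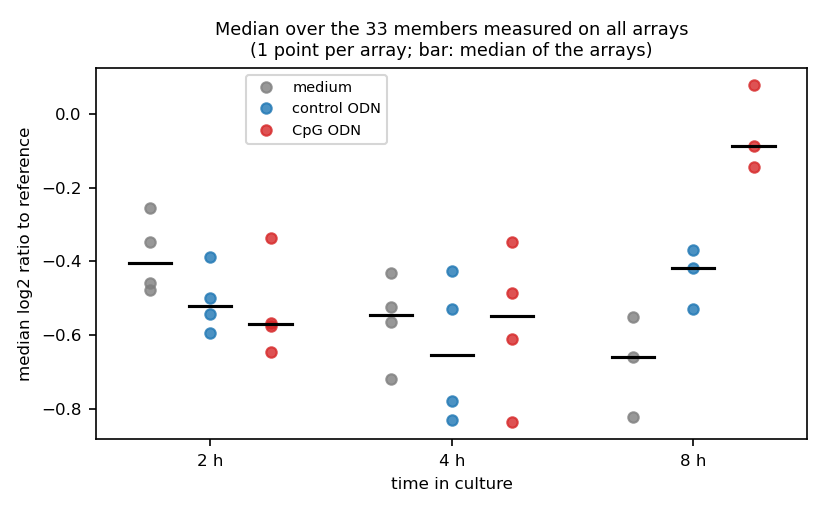
Median log2 ratio to the reference (y axis) over the 33 members measured on every array, by time (x axis) and treatment (colour), with 1 point per array and a bar at the median of each group's arrays. The 3 CpG ODN arrays at 8 h, from -0.14 to 0.08, lie above all others, whose highest is -0.26.

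The first question was whether CpG ODN changed these transcripts early. At 2 h, 0 of 53 tested members passed against control ODN in limma's moderated test with Benjamini-Hochberg adjustment over all genes (a call is an adjusted p below 0.05), and 0.0430% of all genes did. No member had an unadjusted p below 0.05 there, where 2.29% of all genes did. Against medium at 2 h 0 of 57 passed, with 0.0420% of all genes called. An unadjusted p below 0.05 was reached by 3 members (Eef2, Eif4e3 and Eif4ebp1), 5.26%, against 5.52% of all genes. At 4 h 0 of 57 passed against control ODN, where 0.384% of all genes did. There 0 members had an unadjusted p below 0.05, against 3.17% of all genes. Against medium at 4 h 0 of 57 passed, with 0.218% of all genes called. There 1 member (1.75%) was below 0.05 unadjusted, against 4.84% of all genes. Differences against control ODN at 4 h ran from -0.81 to 0.45 with a median SE of 0.24, and 0 of them passed at this spread.

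After 8 h, some initiation factors and synthetases were higher in CpG ODN than in control ODN cultures, while most members did not pass the test. Of 55 tested members 10 rose (18.2%), against 4.55% of all 9494 genes, and 1 fell (1.82%), against 5.45% of all genes. The 10 were Eif4a1, Eif4e, Eif3c, Eif3j1, Eif6, Lars, Iars, Hars, Yars and Yars2, with rises of 1.51 to 2.53-fold. The median difference over tested members was 0.27, while that over all genes was -0.12. Every measured CpG ODN array lay above every measured control ODN array for 21 of the 55 members, with 10.8% of all genes in that state, and below them for 1, with 19.3% of all genes. Of these 21, Eif4h and Sars2 had a value on only some of the arrays.

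The calls against control ODN rest on few arrays. Lars and Eif3j1 passed whichever of the 6 arrays was left out; leaving out CpG ODN replicate 2 or replicate 3 left 3 calls each, control ODN replicate 3 left 4, and control ODN replicate 1 left 7. With the spread estimated from the 2 compared groups alone, 2 members passed (Lars and Yars2).

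**Figure D2:**
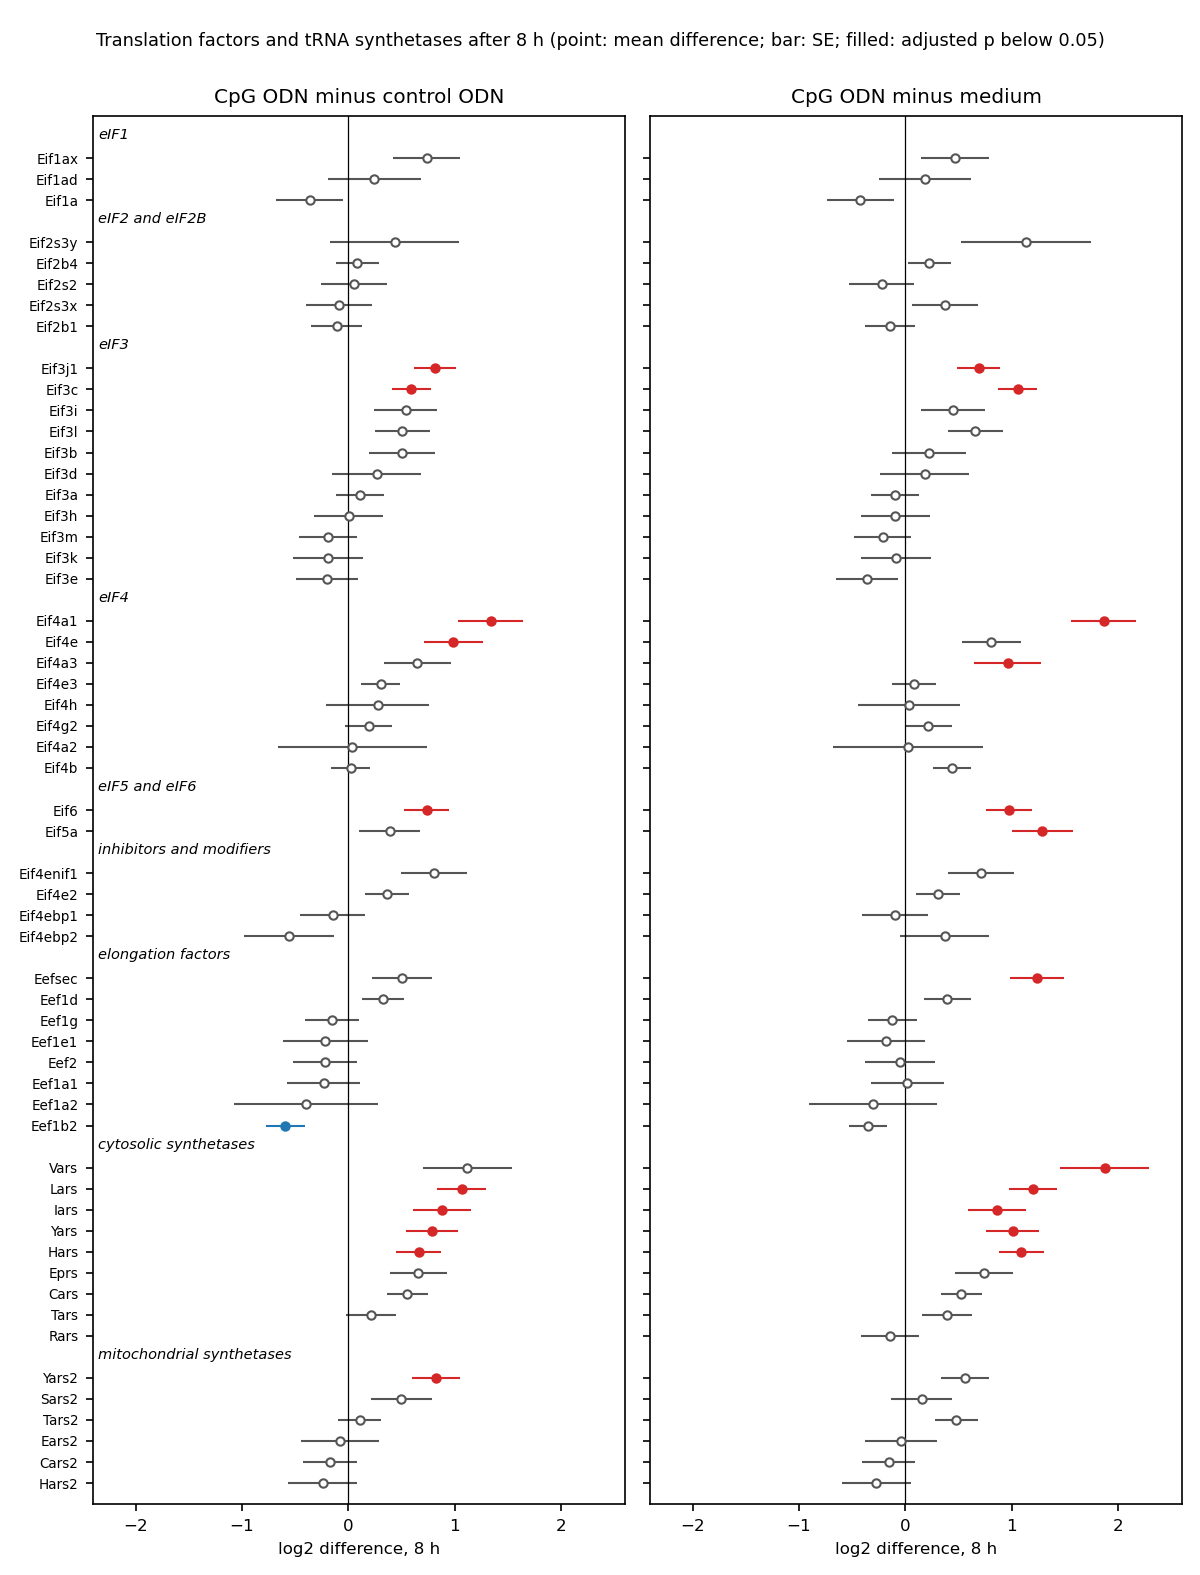
Log2 difference at 8 h (x axis) of every tested member, grouped by role, for CpG ODN minus control ODN (left) and CpG ODN minus medium (right); points are mean differences, bars are SE, and filled points have an adjusted p below 0.05. Cytosolic synthetases, except Rars against medium (-0.14), and several eIF3 and eIF4 genes lie to the right of 0. There are 10 rises and 1 fall on the left and 12 rises on the right.

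The eIF4 group carried the largest called rise. For Eif4a1, which encodes the main cytosolic eIF4A helicase, the 3 medium arrays at 8 h read -0.80, -1.60 and -1.23 and the control ODN arrays -0.96, -1.03 and -0.065. The CpG ODN arrays read -0.14, 1.31 and 0.78. CpG ODN replicate 1 is the low one of its group and control ODN replicate 3 the high one, and these 2 cross. The difference from control ODN was 1.34 ± 0.31 (SE), 2.53-fold, with an adjusted p of 0.00407 in limma, and without CpG ODN replicate 2 it was 1.01 with an adjusted p of 0.057.

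Eif4e encodes the cap-binding protein. Its ratio was -1.33, -1.03 and -1.73 with control ODN and -0.63, -0.13 and -0.37 with CpG ODN, so the groups did not overlap. In medium it was -1.65, -0.54 and -1.37, with replicate 2 inside the CpG ODN range. The rise over control ODN was 0.99 ± 0.28 (adjusted p = 0.020), and the 0.81 ± 0.28 over medium did not pass (adjusted p = 0.055). The call against control ODN was lost when the third control ODN array, or either of the CpG ODN arrays numbered 2 and 3, was left out (highest adjusted p = 0.114). The other 6 eIF4 genes, which include the scaffold-like Eif4g2 and the helicase cofactor Eif4b, did not pass against control ODN.

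In eIF3, the largest initiation factor, 2 of 11 tested subunits rose and 0 fell. Eif3j1 encodes a loosely bound subunit that sits near the mRNA entry channel. It read 0.16, -0.08 and -0.26 with control ODN and 0.71, 0.67 and 0.89 with CpG ODN, with medium at -0.11, 0.35 and -0.04. All CpG ODN arrays were above the others, and the rise was 0.82 ± 0.20 (adjusted p = 0.00765). Eif3c encodes a core subunit: medium gave -0.82, -0.77 and -0.82, control ODN -0.38, -0.29 and -0.36, and CpG ODN 0.012, 0.45 and 0.29.

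The 3 treatments thus formed 3 separate layers for Eif3c at 8 h, and its CpG ODN arrays also lay above every 2 h and 4 h array, whose highest was -0.16. Its rise was 0.59 ± 0.18 over control ODN (adjusted p = 0.032) and 1.05 ± 0.18 over medium (adjusted p = 1.27e-04). The call against control ODN was lost in 5 of the 6 fits that left out 1 array, and under quantile normalization (adjusted p = 0.059), while that against medium held in all 6. The remaining 9 eIF3 subunits ran from -0.20 to 0.54 against control ODN and did not pass.

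Eif6 encodes a factor that keeps free large ribosomal subunits from joining small ones and takes part in making them. Its values were -1.09, -1.47 and -0.91 in medium, -0.96, -0.80 and -0.99 with control ODN, and -0.29, -0.21 and -0.033 with CpG ODN. The CpG ODN arrays did not overlap either control group. The rise over control ODN was 0.74 ± 0.21 (adjusted p = 0.024), and the call was lost in 4 of 6 fits without 1 array. Both probes of Eif6 were higher, by 0.74 and 0.60. The second lay lower, at -1.93 with CpG ODN and -2.53 with control ODN, against -0.18 and -0.92 for the first. It had a value on only 2 arrays of each of these groups, so the mean of the probes shifts where it is missing. That mean did not pass (adjusted p = 0.361), which for this reason cannot decide on the rise.

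Among cytosolic synthetases 4 of 8 tested rose and 0 fell, and all 8 differences were above 0, from 0.21 to 1.12 with a median of 0.72. Lars, which charges leucine tRNAs, read -1.16, -0.55 and -1.11 in medium, -0.76, -0.69 and -0.97 with control ODN, and 0.043, 0.46 and 0.27 with CpG ODN. No array of another treatment or time reached the lowest CpG ODN value at 8 h; the highest at 2 h or 4 h was -0.59. The rise was 1.07 ± 0.23 (2.09-fold, adjusted p = 0.00188), the smallest adjusted p of any member in this comparison.

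Iars (isoleucine) went from -0.53, -0.37 and -0.87 with control ODN to 0.017, 0.72 and 0.13 with CpG ODN, with medium at -0.59, -0.26 and -0.86. Yars (tyrosine) read -1.37, -0.94 and -1.05 in medium, -0.84, -0.92 and -0.95 with control ODN, and -0.36, -0.070 and 0.091 with CpG ODN. In both genes every CpG ODN array lay above every control array at 8 h. Their rises over control ODN were 0.88 ± 0.27 for Iars (adjusted p = 0.036) and 0.79 ± 0.25 for Yars (adjusted p = 0.037), and these calls were lost in 4 and 5, respectively, of 6 fits without 1 array. Iars also missed under quantile normalization (adjusted p = 0.052) and Yars without the 4 arrays of low experiment number (adjusted p = 0.061).

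Hars (histidine) gave -1.12, -1.79 and -1.29 in medium, -0.80, -1.27 and -0.84 with control ODN, and -0.51, -0.33 and -0.092 with CpG ODN. The CpG ODN group was the highest and medium the lowest on average at 8 h. Its rise over control ODN was 0.66 ± 0.21 (adjusted p = 0.042; 0.060 without the 4 arrays of low experiment number), and 4 of 6 fits without 1 array lost the call. Of the other tested cytosolic synthetases, Vars, Eprs and Cars, named here after their values were seen, had CpG ODN arrays above all control ODN arrays but did not pass (adjusted p = 0.092, 0.132 and 0.068). Kars and Rars had a single array in 1 of the compared groups and were not tested against control ODN. Rars was tested against medium, where it lay at -0.14 and was not called.

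The mitochondrial synthetases showed 1 rise and 0 falls among 6, with a median of 0.01. That rise was Yars2, which charges tyrosine tRNAs inside mitochondria: -0.74, -0.82 and -1.08 with control ODN, -0.10, -0.14 and 0.073 with CpG ODN, and -0.99, -0.21 and -0.66 in medium. All CpG ODN arrays were above both other groups, though medium replicate 2 came close. The rise was 0.82 ± 0.23 over control ODN (adjusted p = 0.017), and 0.56 ± 0.23 over medium did not pass (adjusted p = 0.109). The call was lost without control ODN replicate 3 or CpG ODN replicate 3.

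Of 8 tested Eef genes, called elongation factors here, 0 rose against control ODN and 1 fell, and the median difference was -0.22. Eif5a, counted with Eif6 instead, was 0.39 higher and did not pass (adjusted p = 0.477). The Eef gene that fell was Eef1b2, a subunit of the complex that recharges eEF1A with GTP. It read 1.13, 0.53 and 0.33 with control ODN, 0.54, 0.29 and 0.45 in medium, and 0.038, 0.13 and 0.052 with CpG ODN.

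All CpG ODN values of Eef1b2 were below both control groups at 8 h. The difference was -0.59 ± 0.18 from control ODN (adjusted p = 0.033) and -0.35 from medium, which did not pass (adjusted p = 0.229). The call was lost in 4 of 6 fits without 1 array and under quantile normalization (adjusted p = 0.103). Control ODN replicate 1 was the high array, and without it the difference was -0.36 (adjusted p = 0.240). The CpG ODN values at 8 h also lay within the range of control ODN at 2 h, -0.23 to 0.17. Eef1a1, which encodes the main tRNA-delivering factor, and Eef2, which moves the ribosome along, differed from control ODN by -0.23 and -0.22 with adjusted p of 0.779 and 0.767; both are given although they were picked after their values were seen.

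In the remaining roles 0 members passed against control ODN, and the one with the smallest p is given for each. Eif1ax, the X-linked eIF1A gene that helps scan for the start codon, was 0.74 higher (adjusted p = 0.152), with control ODN arrays at -1.62, -1.11 and -1.40 and CpG ODN arrays at -0.85, -0.64 and -0.43. Eif4enif1, which encodes the eIF4E transporter that moves eIF4E and holds mRNAs silent, was 0.80 higher (adjusted p = 0.109). Neither gene's CpG ODN arrays overlapped the control ODN arrays. With the replicate number as a block both passed (adjusted p = 0.041 for Eif1ax and 0.019 for Eif4enif1).

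In the eIF2 group all 5 differences from control ODN lay between -0.11 and 0.44 and 0 passed. The smallest p was that of Eif2s3y, a Y-linked eIF2 gamma gene with a near-identical X-linked copy, Eif2s3x. It read from -2.08 to -0.19 on the 8 h arrays of these female mice, and 2.29 on medium at 2 h replicate 2, the highest of all arrays. The specificity of its probe is not known, and the reference pool includes testis RNA per the labels.

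**Figure D3:**
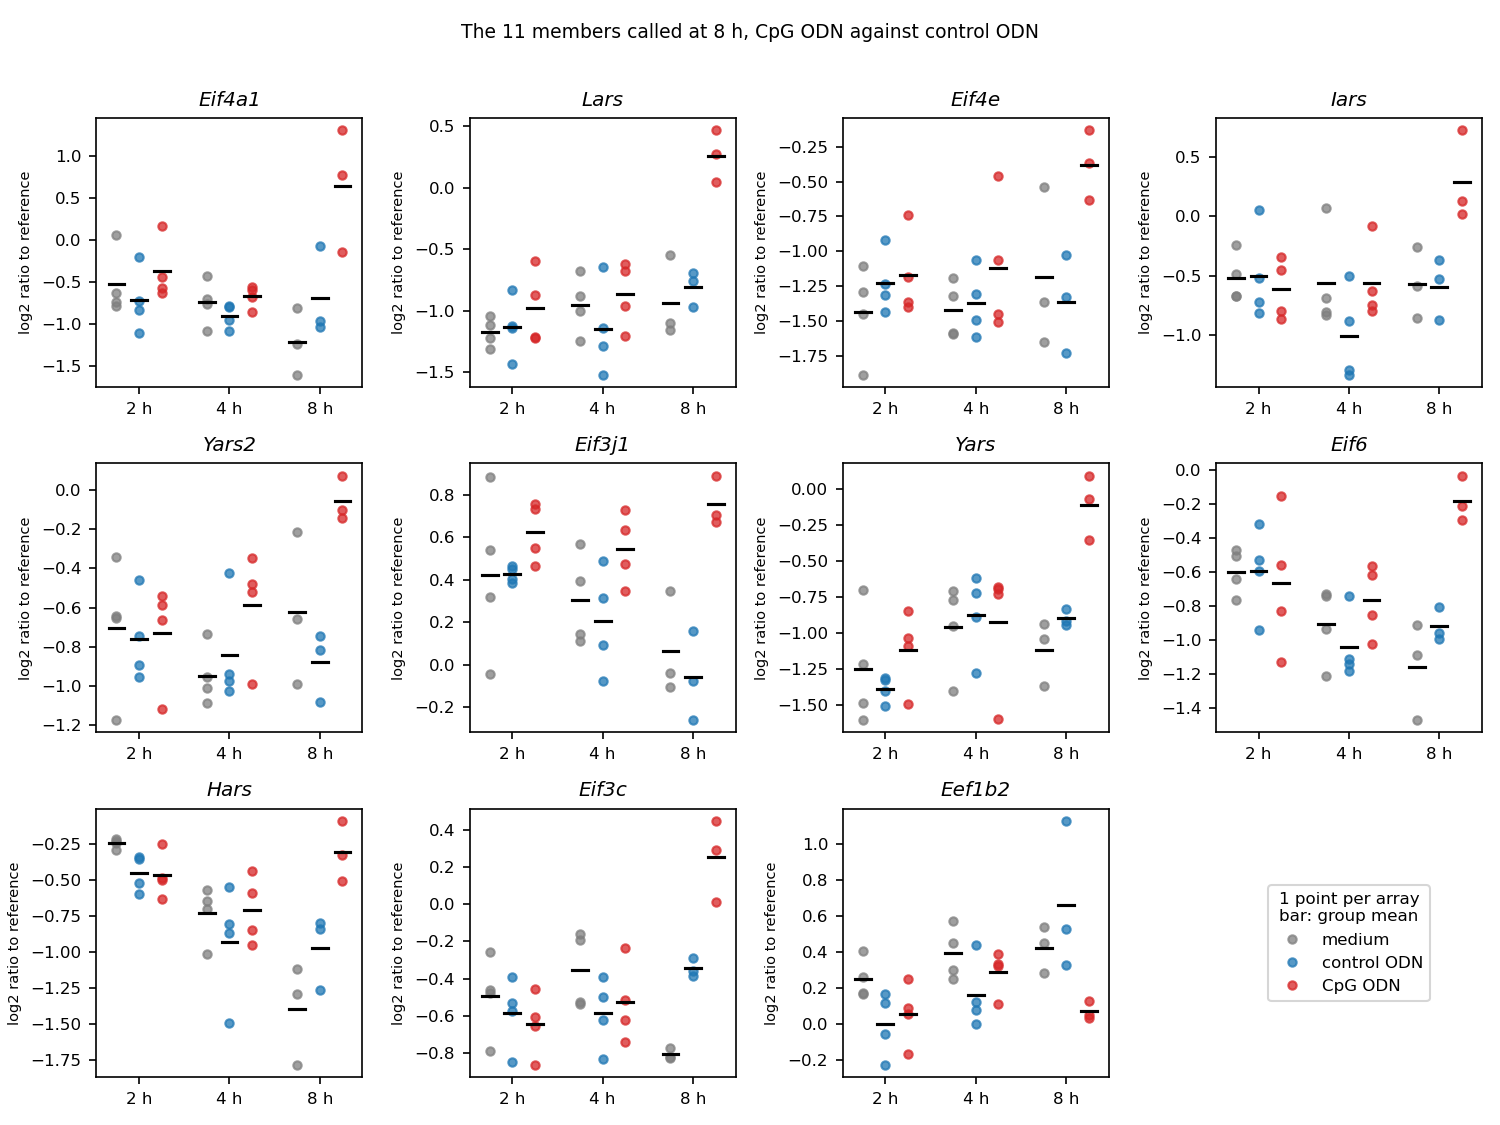
Log2 ratio to the reference (y axis, scaled per gene) of the 11 members called at 8 h for CpG ODN against control ODN, by time (x axis) and treatment (colour), with 1 point per array and a bar at the group mean. For 10 genes the mean of the CpG ODN group is the highest at 8 h and for Eef1b2 the lowest; 0 of the 11 were called at 2 h or 4 h.

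The medium cultures are the control without any added DNA. Against them, at 8 h 12 of 56 tested members rose (21.4%), against 5.66% of all genes, and 0 fell, against 6.11% of all genes. The measured CpG ODN arrays lay above all measured medium arrays for 24 members (10.4% of all genes) and below them for 1 (17.7% of all genes). Eif4a1 rose by 1.86 ± 0.31 (3.64-fold, adjusted p = 7.84e-05). Lars rose by 1.20 ± 0.23, Hars by 1.09 ± 0.21, Yars by 1.01 ± 0.25, Eif6 by 0.97 ± 0.21, Iars by 0.86 ± 0.27 and Eif3j1 by 0.69 ± 0.20.

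Because both comparisons use the same 3 CpG ODN arrays, their lists are not independent. The 8 members Eif3c, Eif3j1, Eif4a1, Eif6, Hars, Iars, Lars and Yars were called in both, of 55 tested in both. The share of all genes called in both was not computed. Called only against medium were Vars, Eif5a, Eefsec and Eif4a3, named after their values were seen. Vars charges valine tRNAs and was 1.87 ± 0.42 higher than medium; medium read -0.06, -1.73 and -1.49 and CpG ODN 0.29, 1.31 and 0.74. Eif5a, which helps ribosomes past stretches that form peptide bonds slowly, was 1.29 ± 0.29 higher, with medium at -0.29, -1.91 and -1.30 and CpG ODN at -0.03, 0.25 and 0.13.

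For Vars and Eif5a medium replicate 1 stood nearest to the CpG ODN arrays. Eefsec, the elongation factor for selenocysteine, was 1.24 ± 0.26 higher, and Eif4a3, an eIF4A-related helicase of the exon junction complex, 0.96 ± 0.31 (adjusted p = 0.042). Leaving out 1 array at a time ended the call in 5 of 6 fits for Eif4a3, 4 for Iars and 3 for Eif3j1, and gave 9 to 13 calls in all. With the 2 compared groups alone 4 members passed.

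Control ODN and medium were compared in the same way. At 8 h 0 of 56 members passed in limma, and 0 of all genes did. An unadjusted p below 0.05 was reached by 5 members (8.93%), against 3.98% of all genes. All 5 were higher with control ODN: Eif5a, Eefsec, Eif3c, Eif4b and Eif4ebp2. At 2 h 0 of 53 and at 4 h 0 of 57 passed between these groups. Each time 1 member had an unadjusted p below 0.05 (1.89% and 1.75%), against 2.48% and 1.83% of all genes. That no member passed does not show that the groups were alike.

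Whether the effect of CpG ODN itself grew from 2 h was tested as a change of the difference from control ODN. For 2 h to 8 h 0 of 51 members passed, where 3.26% of all genes did. An unadjusted p below 0.05 was found for 12 members (23.5%), 11 of them upward, against 14.4% of all genes in either direction. The smallest adjusted p was that of Lars, 0.104, with a change of 0.91 ± 0.30. Weighting arrays by their quality gave 2 calls (Eif6 and Lars), the replicate block 3 (Eif6, Lars and Eprs), and leaving out replicate 1 of CpG ODN at 2 h or at 8 h gave 1 each (Eif6 and Eif4a1, respectively). For 2 h to 4 h 0 of 53 passed, and 0.0108% of all genes were called. There 0 members had an unadjusted p below 0.05, against 1.97% of all genes. A call at 8 h and none at 2 h is therefore not shown to be a difference between the times for these genes.

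Several members also moved in culture without any ODN, and the medium arrays at 8 h are the same ones CpG ODN was compared with. From 2 h to 8 h in medium 1 of 57 members rose, against 9.26% of all genes, and 5 fell (8.77%), against 5.30% of all genes. Eif1a, an autosomal eIF1A gene, rose by 1.67 ± 0.30 (3.19-fold, adjusted p = 2.51e-04) from 0.52, -0.64, -0.25 and -0.22 to 1.49, 1.01 and 2.07. Its 8 h values with control ODN (0.76, 2.03 and 1.61) and CpG ODN (0.98, 0.91 and 1.42) overlapped those in medium, and its difference between those 2 was -0.36 (adjusted p = 0.572).

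Hars fell by 1.15 ± 0.20 in medium (adjusted p = 1.75e-04), from -0.23, -0.24, -0.30 and -0.22 at 2 h to -1.12, -1.79 and -1.29 at 8 h. In CpG ODN cultures it ran from -0.64 to -0.25 at 2 h and from -0.51 to -0.092 at 8 h, ranges that overlap. At 4 h it was lower there on average, from -0.96 to -0.44. With control ODN its mean was -0.45 at 2 h, -0.93 at 4 h and -0.97 at 8 h. Changes over time within the CpG ODN or control ODN cultures were not tested. The other falls in medium were those of Eif4ebp1 (-1.06), Eif4a3 (-0.94), Eif5a (-0.92) and Eef2 (-0.87), named after their values were seen. Leaving out 1 medium array ended the call in 4 of 7 fits for Eif4a3 and 3 of 7 for Eif5a. It did so in 2 of 7 for Eif4ebp1 and 3 of 5 for Eef2. Eef2 had no value on medium at 8 h replicate 2, and Eif4ebp1 none on medium at 2 h replicate 2. Eif4ebp1 encodes the repressor that binds eIF4E until mTOR phosphorylates it. It also stood low at 8 h with CpG ODN (-1.04 to -0.58), and its difference from control ODN there was -0.15 (adjusted p = 0.863).

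Eif1a and Hars held in all 7 fits that left out 1 medium array. The number of calls was 2 without medium at 2 h replicate 3 and 2 without medium at 8 h replicate 2, 2 with the compared groups alone, and 11 with array weights.

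**Figure D4:**
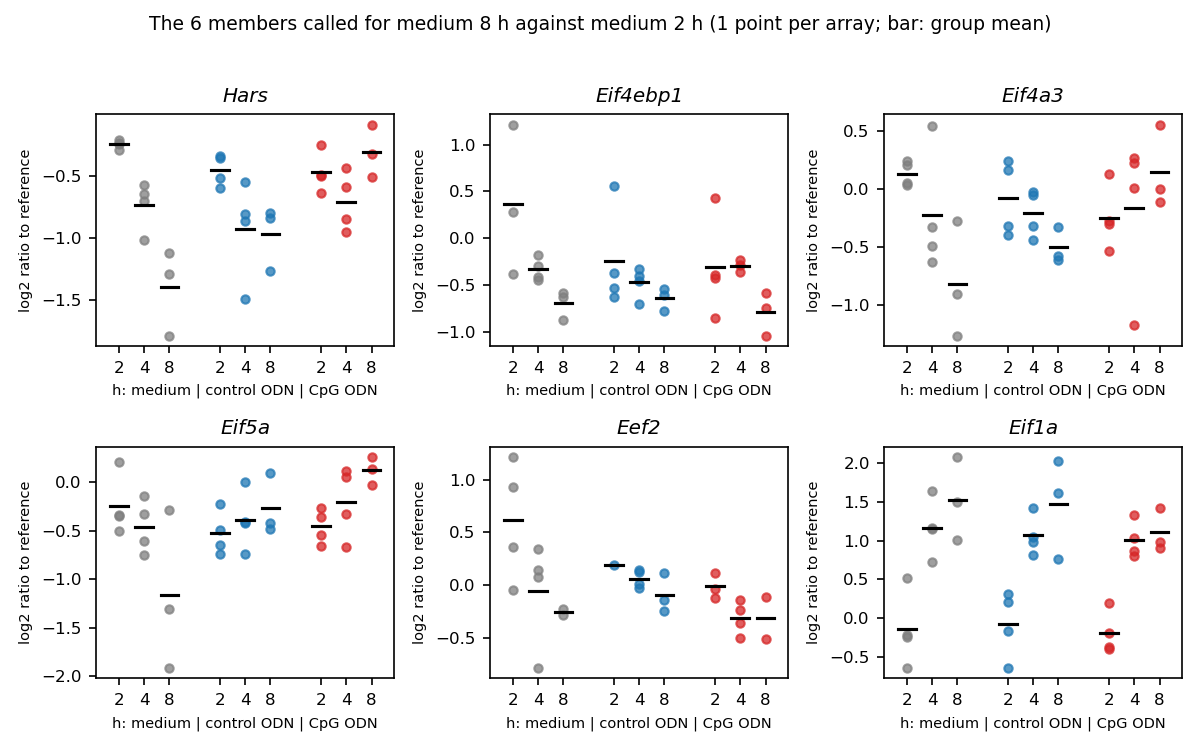
Log2 ratio to the reference (y axis, scaled per gene) of the 6 members called for medium at 8 h against medium at 2 h, by time in hours within each treatment (x axis: medium, control ODN, CpG ODN), with 1 point per array and a bar at the group mean. Eif1a is higher at 8 h in all 3 treatments, while Hars, lowest at 8 h in medium, has CpG ODN arrays at 8 h between -0.51 and -0.092.

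The neighbouring parts of the pathway were read from lists of related genes. Of 16 tested genes of the eIF2 stress response, 4 rose and 1 fell at 8 h against control ODN (4.55% and 5.45% of all genes did), with a median of 0.33. Eif2ak2, which encodes the interferon-induced kinase PKR that phosphorylates eIF2 on double-stranded RNA, rose by 2.58 ± 0.32 (adjusted p = 1.38e-06 in limma), with CpG ODN arrays at 0.91, 1.09 and 1.02 and control ODN arrays at -1.18, -1.45 and -2.07. Eif2ak3, which encodes PERK, the eIF2 kinase of the endoplasmic reticulum, fell by 1.69 ± 0.34 (adjusted p = 8.88e-04), with CpG ODN at 0.19, -0.38 and 0.039 and control ODN at 1.52, 1.86 and 1.55. These kinase genes thus moved in opposite directions, with no overlap between arrays in either.

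Shmt2, a mitochondrial enzyme of serine and one-carbon metabolism counted among ATF4 targets, rose by 1.17 ± 0.23 (adjusted p = 9.39e-04). Psat1 and Mthfd2, enzymes of serine synthesis and one-carbon metabolism that were named after their values were seen, rose by 1.16 ± 0.25 and 0.96 ± 0.24, and Mthfd2 missed without CpG ODN replicate 2 or 3. The transcription factor gene Atf4 itself was 0.33 higher than control ODN and did not pass (adjusted p = 0.382), whereas its 0.82 ± 0.21 over medium did (adjusted p = 0.00877). The called rises of this list against control ODN were thus those of the kinase gene Eif2ak2 and of 3 metabolic enzymes. The rest of the list did not pass there, with adjusted p from 0.061 to 0.975 in limma. Besides Atf4, Slc7a1 (0.77), Ppp1r15b (0.62), Slc3a2 (0.45), Asns (0.33) and Ppp1r15a (0.15) were higher. Sesn2 (-0.48), Eif2ak1 (-0.31), Cebpb (-0.20), Eif2ak4 (-0.09) and Slc7a5 (-0.03) were lower.

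Of 13 genes of mTOR and MAPK control of initiation 0 passed in either 8 h comparison; Mlst8, the one with the smallest p against control ODN, was at -0.66 (adjusted p = 0.080). Of 15 genes for termination, poly(A) binding and cofactors 0 rose and 2 fell against control ODN (4.55% and 5.45% of all genes did). Against medium 2 of the 15 rose, Dohh (adjusted p = 0.044) and Pabpc4 (adjusted p = 0.040), named after their values were seen, and 2 fell (5.66% and 6.11% of all genes). Farsb, the beta subunit of the phenylalanine synthetase, whose symbol falls outside the naming rule of the members, fell by 1.27 ± 0.41 (adjusted p = 0.046), from 1.68, 2.39 and 2.13 with control ODN to 1.32, 0.35 and 0.73 with CpG ODN. It thus stood against the direction of the 8 tested cytosolic synthetases among the members, though the call was lost in 4 of 6 fits without 1 array and under quantile normalization.

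Farsa, the alpha subunit, was at -0.66 and did not pass (adjusted p = 0.095). Paip2, an inhibitor of the poly(A)-binding protein, fell by 1.01 ± 0.28 (adjusted p = 0.017), a call lost in 3 of 6 fits and under quantile normalization. Of 7 mitochondrial translation factors 0 passed. At 2 h and 4 h 0 genes of these 4 lists passed in any comparison between treatments.

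Markers of spleen cell types moved in the same arrays. Against control ODN at 8 h, 3 of 11 B cell markers and 4 of 12 T cell markers fell and 0 rose, with medians of -0.68 and -0.71; 5.45% of all genes fell. Against medium 2 B cell and 1 T cell marker fell and 0 rose, where 6.11% of all genes fell. The array medians of the B cell markers were 1.78 to 2.16 with CpG ODN, 2.78 to 3.31 with control ODN and 1.46 to 3.37 in medium. Those of the T cell markers were 0.58 to 2.15, 1.58 to 2.24 and 1.56 to 2.52, in the same order. Monocyte and macrophage markers gave 2 rises and 2 falls among 11, erythroid markers 0 rises and 1 fall among 6, and NK cell markers (5) and neutrophil markers (8) 0 calls against control ODN. Against medium 1 neutrophil marker fell. The part of these shifts in the members' values was not tested. In RNA of mixed cells, fewer cells of a type and less RNA per cell cannot be told apart. Of 11 tested markers of reference tissues absent from spleen, 0 rose against control ODN and 1 fell, Fabp1 (-0.93, adjusted p = 0.014 in limma). Against medium Krt10 rose (0.93, adjusted p = 0.041) and Fabp1 fell (-0.75, adjusted p = 0.045). Of all genes 4.55% rose and 5.45% fell against control ODN, and 5.66% and 6.11% against medium.

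Promoter windows of the members were read from RefSeq (mouse GRCm38.p6, C57BL/6J reference, 300 bases around each start) for motifs of factors tied to growth and amino acid supply. By gene identifier 41 of 57 members had a window, 52 windows in all. The hexamer CACGTG, an E-box that MYC and related factors bind, reads the same on both strands; it was in 12 of 52 member windows (23.1%), against 7.15% of 32851 windows of all genes. Counted per gene it was in 24.4% of members and 11.0% of the 7678 measured genes with a window. The member windows had a median GC content of 61.3%, those of measured genes 59% and all windows 52.7%, so the sets also differ in base composition.

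Of the 10 members that rose against control ODN 7 had a window, and 3 of these, Eif4a1, Eif4e and Iars, held CACGTG, as did 7 of the other 33 tested members with a window. The matches of these 3 genes, with the motif in capitals, are shown because they belong to members that rose. They are written 5′ to 3′ on the gene's strand: chr11:69672582-69672637 (minus), chr3:138527018-138527070 (plus), chr3:138527179-138527234 (plus) and chr13:49682036-49682091 (plus), with 183, 222, 58 and 63 bases between motif and start.
Eif4a1: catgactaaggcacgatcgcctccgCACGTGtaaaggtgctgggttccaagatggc
Eif4e, distal: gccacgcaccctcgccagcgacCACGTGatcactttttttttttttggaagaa
Eif4e, proximal: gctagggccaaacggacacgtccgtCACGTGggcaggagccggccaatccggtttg
Iars: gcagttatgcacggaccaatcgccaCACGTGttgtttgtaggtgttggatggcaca

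The octamer TGATGCAA, a form of the element that ATF4 binds with C/EBP partners in amino acid response genes, was searched on both strands. It was in 3 of 52 member windows (5.77%), against 0.895% of all windows, and per gene in 7.32% of members and 0.860% of measured genes. All 3 were synthetases: Iars and Yars, which rose, and Tars, which did not pass. The 30 bases around each match are shown with the match in capitals, because the gap to the start is short in each: it covers bases 8 to 15 of the Iars transcript and 4 to 11 of the Yars transcript, and ends 7 bases before the Tars start. In Iars (chr13:49682126-49682155, plus) and Tars (chr15:11399655-11399684, minus) it is on the opposite strand, and in Yars (chr4:129189895-129189924, plus) on the gene's own.
Iars: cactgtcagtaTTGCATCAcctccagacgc
Tars: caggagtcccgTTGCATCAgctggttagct
Yars: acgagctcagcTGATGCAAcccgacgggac

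The ETS-type heptamer CCGGAAG, searched on both strands, was in 18 of 52 member windows (34.6%), against 8.86% of all windows, and per gene in 36.6% of members and 16.8% of measured genes. It was in 1 of the 7 members that rose and had a window (Eif3c) and in 13 of the other 33. Which factors occupy these sites was not measured here.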

How the data were processed

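The deposited series table holds 1 log ratio per probe and array, Cy5 over Cy3 per the labels, read here as log2; its base, and how the authors corrected background and normalized, was not given in the sources used here. Probes were named from GEO's platform annotation, and all 57 members matched a RefSeq gene identifier. Where a gene had several probes (3 members), the one measured on most arrays stood for it. Array medians were set to 0. For every gene, 9 group means were estimated with limma 3.58.1 in R 4.3.3; missing values were left out, and a gene entered a comparison with at least 2 measured arrays in each compared group. P-values were Benjamini-Hochberg adjusted over all genes tested, and errors are SE from this fit. The code was tested on simulated data.

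Members named with values were, per role, up to 4 called at 8 h against control ODN with the largest difference (or the smallest p where none was called), all that fell there, all called at 2 h or 4 h, between controls or for a change over time, and the strongest in each direction in medium over time. The members, lists and motifs were chosen with earlier results of these data known. Replicate numbers were tried as a block only as an alternative. Same-numbered arrays deviated together (r over 0.1) in 21 of 33 pairs, and in 3 of 3 for control ODN with medium at 8 h. The main fit used no pairing in any comparison, so a deviation shared by same-numbered arrays stays in its SE. Depth is known only as probes per array; the number of arrays limits the precision. Sequences of proteins were not used here.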

Additional observations from a re-analysis of the deposited data

Results flagged for a closer look

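Among the named members, 87 groups of 4 arrays were examined for 1 array far from the other 3, and 4 had one; chance gives about 5% of groups. Eif6 was high with control ODN at 4 h on replicate 4 (-0.74), and Yars2 was high on the same array (-0.43). Iars was high in medium at 4 h on replicate 1 (0.071), an array of low experiment number. Yars was low with CpG ODN at 4 h on replicate 2 (-1.60). None of these arrays enters an 8 h mean.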

How the results depend on the processing

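In every setting run, the named members kept the direction they had where called. Some counts of calls moved. With only the compared groups fitted, calls at 8 h numbered 2 against control ODN (11 otherwise) and 4 against medium (12), and 2 in medium over time (6). Array weights gave 1 call against medium at 2 h (Eef2, lower), 2 for the change from 2 h to 8 h and 11 in medium over time. Leaving out 1 array gave 3 to 10 calls against control ODN at 8 h, 0 to 1 for the change from 2 h to 8 h and 2 to 7 in medium over time. The replicate block gave 3 calls for that change (0 without it), and 15 against control ODN and 18 against medium at 8 h. It gave 0 between control ODN and medium, the groups whose same-numbered arrays all deviated together at 8 h. Quantile normalization gave 8 and 11 calls at 8 h, and values as deposited 11 and 13. Quantile normalization moved the median of all genes against control ODN from -0.12 to -0.049 and that of the members from 0.27 to 0.24. With 3 arrays a group and member SE of 0.18 to 0.70 at 8 h, small changes may be missed.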
